A study of Mus musculus with 36 samples.

Results

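Amino acid starvation and thapsigargin were compared in wild-type (WT) mouse embryonic fibroblasts, by asking for each gene whether its response to starvation differed from its response to thapsigargin. The comparison uses 12 of the 36 libraries of the series, chosen by their labels alone: 3 starved, 3 untreated, 3 given thapsigargin and 3 given DMSO. Starved WT cells (AAS in the labels) spent 6 h in RPMI 1640 SILAC medium without lysine and arginine, and untreated WT cells stayed in RPMI 1640 with fetal bovine serum. Thapsigargin-treated WT cells were given 200 nM for 6 h, and their controls received the solvent DMSO. The other 24 libraries hold the same 4 groups in a line without the kinase GCN2 and in a line without the kinase PERK, and are used here only to show where WT differed.

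Both stresses converge on one branch of the stress response. Uncharged tRNA activates GCN2, unfolded protein in the endoplasmic reticulum (ER) activates PERK, and both kinases phosphorylate the translation factor eIF2alpha, after which the transcription factor ATF4 is made and raises genes of amino acid supply and of stress. Thapsigargin blocks the calcium pump of the ER, and the emptied ER also activates IRE1 and ATF6, the sensors that raise XBP1 and the ER chaperones without eIF2alpha. The series was designed to find genes induced by one of these kinases and not the other.

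Each value is a TPM, the relative abundance of a gene's transcripts corrected for their length, in a unit with the same sum in every library. The starvation effect is the log2 change of (TPM + 1) from starved over untreated cells, the thapsigargin effect is that of thapsigargin over DMSO, and the difference of effects is the first minus the second. A gene is called where its adjusted p was under 0.05 (limma, Benjamini-Hochberg over the 16083 genes tested), and only then is it said to have risen, fallen or differed. The labels call the 3 libraries of a group technical replicates of 1 line per genotype, so every p measures the spread between these libraries and may be only technical. The labels do not say whether the starvation medium held serum and name no control in the same medium without starvation, so the loss of both amino acids and the change of medium cannot be told apart.

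Of 12 fibroblast markers, 7 averaged at least 5 TPM over the WT libraries, led by Vim at 1618 TPM, while Lum was under 0.1 TPM. Of 8 immune markers only Cd68, at 5.2 TPM, was above 0.1 TPM. Of 8 epithelial markers 4 were under 0.1 TPM, Cdh1 and Krt5 among them, and Krt19 was highest at 8.22 TPM. Of 7 pluripotent and neural markers Pou5f1 and Sox2 were under 0.1 TPM, while Nes was at 55.6 and Tubb3 at 37.6 TPM, and the sum of the 7 was 68.4 to 71.5 TPM with thapsigargin and 91.1 to 94.5 TPM with DMSO. Eif2ak4, which encodes GCN2, ran from 18.4 to 28.1 TPM in WT and from 4.54 to 7.89 TPM in the 12 libraries labelled GCN2 deletion. Eif2ak3, which encodes PERK, ran from 3.82 to 13.04 TPM in WT and from 3.41 to 9.26 TPM in the 12 libraries labelled PERK deletion, so the gene-level values overlap and do not check that label. TPM keeps no read depth, so no counting error could be given. Untreated replicate 1 stood apart, with 13972 genes at 1 TPM or more, 2.38% of its TPM in microRNA genes and 9.49% in mitochondrial genes, each the highest of the 12 WT libraries. Few genes were called between DMSO and untreated cells: 7 were higher with DMSO (0.0435% of genes tested) and 12 lower (0.0746%). Shifts with DMSO that did not pass still entered the differences, such as -0.28 log2 for Hspa5 and 0.29 log2 for Ctgf (limma, adjusted p 0.0632 each).

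Starvation and thapsigargin each moved a large share of the genes, and many of those that rose were shared. With starvation 2016 genes rose (12.5% of those tested) and 2794 fell (17.4%). With thapsigargin 1838 rose (11.4%) and 2384 fell (14.8%). Both stresses raised 1013 genes, which are 50.2% of the starvation rises and 55.1% of the thapsigargin rises, and both lowered 1099, which are 39.3% and 46.1% of the falls. The sharing was less complete among large falls: 188 genes fell at least 2-fold with starvation, 149 with thapsigargin, and 24 with both. Of genes that rose at least 2-fold, 240 did so with starvation, 221 with thapsigargin and 117 with both. Across the 16083 genes, which are not independent of each other, the effects had a Pearson r of 0.34 and a Spearman rho of 0.35, with no library in common between them.

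The difference of effects was called for 1921 genes, 928 higher with starvation (5.77%) and 993 lower (6.17%). At least 2-fold differences were 174 higher (1.08%) and 143 lower (0.889%). Of the 928 higher genes, 171 rose with starvation and fell with thapsigargin, 282 rose with starvation alone and 297 fell with thapsigargin alone, in the sense that the other effect did not pass. Of the 993 lower genes, 136 fell with starvation and rose with thapsigargin, 434 had a passing fall with starvation only and 232 a passing rise with thapsigargin only. Among the 117 genes that rose 2-fold in both stresses, 11 differed in favour of starvation, 17 in favour of thapsigargin, and for 30 the 95% interval of the difference lay within 0.5 log2 of 0, as it did for 36.9% of all genes tested. Over all genes that interval reached 0.36 log2 to either side at the median, so smaller differences were often not detectable. The counts moved when the control of each stress was changed: with both controls exchanged 2424 genes were higher and 1027 lower (70.2% of calls higher, against 48.3%), and the median difference of all genes was 0.13 in place of -0.004 log2. With starved cells set directly against thapsigargin-treated cells 2607 were higher and 1568 lower (62.4% higher). Without untreated replicate 1 they were 1098 and 854.

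**Figure D1:**
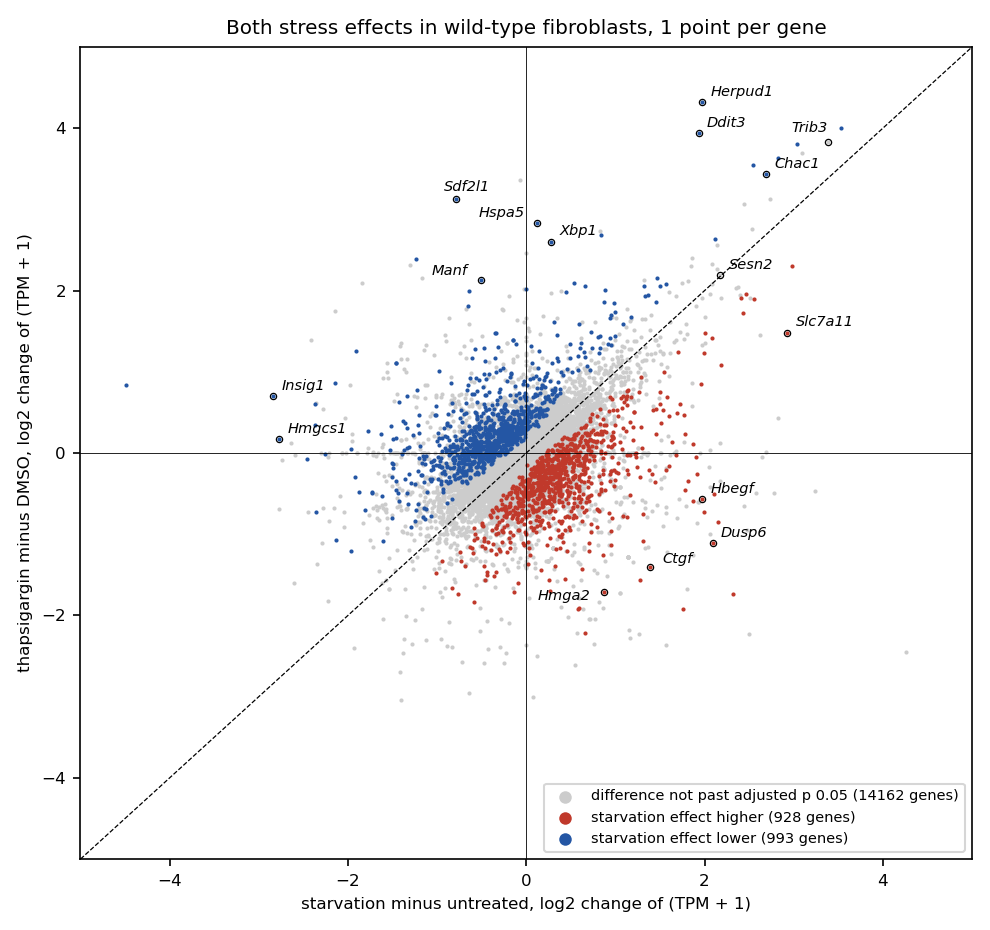
Starvation effect (x axis) against thapsigargin effect (y axis) in WT fibroblasts, both as log2 change of (TPM + 1), with 1 point for each of the 16083 genes tested and a dashed line where the effects are equal. The 928 genes higher with starvation lie below the line and the 993 lower genes above it. Hspa5, Xbp1 and Sdf2l1 are high on the y axis with starvation effects of 0.12, 0.28 and -0.785 log2. Sesn2 is on the line.

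Short stretches of promoter are shown for 6 of the genes described below because they hold a motif of the pathways under comparison. Sequences are RefSeq's for the GRCm38.p6 build, each with 25 bases on either side of a match, read 5′ to 3′ on the gene's strand, lower case with the match in capitals. The motifs were searched on both strands from 250 bases before to 50 after the gene's RefSeq start.
Hspa5, chr2:34772000-34772068, + strand, ERSE: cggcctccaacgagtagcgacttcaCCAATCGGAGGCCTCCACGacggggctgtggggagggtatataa
Creld2, chr15:88819495-88819563, + strand, ERSE on the opposite strand: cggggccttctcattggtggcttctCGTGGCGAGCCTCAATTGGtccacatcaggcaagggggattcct
Herpud1, chr8:94386292-94386412, + strand, CARE on the opposite strand, then ERSE-II: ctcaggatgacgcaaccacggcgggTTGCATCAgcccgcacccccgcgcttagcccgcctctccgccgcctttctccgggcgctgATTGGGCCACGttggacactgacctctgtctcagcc
Atf3, chr1:191183411-191183468, - strand, CARE on the opposite strand: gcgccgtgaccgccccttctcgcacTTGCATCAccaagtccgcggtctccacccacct
Chac1, chr2:119351024-119351081, + strand, CARE on the opposite strand: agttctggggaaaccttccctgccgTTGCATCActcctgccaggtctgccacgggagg
Hmgcs1, chr13:119690189-119690247, + strand, SRE: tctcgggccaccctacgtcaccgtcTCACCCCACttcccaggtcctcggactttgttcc

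The ER stress element (ERSE, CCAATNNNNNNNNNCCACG) is the site through which ATF6 and XBP1 act on chaperone genes, and ERSE-II is ATTGGNCCACG. The C/EBP-ATF response element (CARE, TGATGNAA) is bound by ATF4 with its partners, and the sterol regulatory element (SRE, TCACNCCAC) by SREBP. ERSE was in the window of 37 of 27025 genes (0.137%) and of 8 of the 20 ER chaperone genes with a window (40%). ERSE-II was in 12 windows (0.0444%). CARE was in 1219 windows (4.51%), in 8 of 22 ATF4 and CHOP stress genes (36.4%), in 4 of 13 amino acid synthesis genes (30.8%) and in 5 of 13 tRNA synthetase genes (38.5%). SRE was in 388 windows (1.44%) and in 1 of 17 sterol genes, Hmgcs1. The UPR element core (TGACGTGG) was in 193 windows (0.714%), and 3 windows held it overlapping an ERSE or ERSE-II. In the windows of Hspa5 and Herpud1 the ERSE and ERSE-II begin 65 and 52 bases before the RefSeq start. Of 18 tested genes with an ERSE, 9 were lower with starvation (50%) and 0 higher, and most of these 9 are in the ER chaperone list. Of 10 with an ERSE-II, 3 were lower (30%) and 0 higher. Of 262 with a CARE, 18 were lower (6.87%) and 25 higher (9.54%). For the UPR element core these were 12 (11.8%) and 6 (5.88%) of 102, and for SRE 17 (12.3%) and 10 (7.25%) of 138. Of all 10074 tested genes with a window, 750 were lower and 671 higher. A match is a description of letters, not a site shown to be used.

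The ER chaperones and folding enzymes were displaced mainly by thapsigargin. Of 22 members tested, 18 were lower with starvation and 1 was higher, with a median difference of -1.33 log2 against -0.004 over all genes. With starvation 2 rose and 12 fell, and with thapsigargin 20 rose and 0 fell. In starved cells Hspa5, the abundant ER chaperone also called BiP, was at 886, 916 and 939 TPM, against 815, 829.5 and 879.8 TPM in untreated cells. Thapsigargin brought it to 4768, 4888 and 5164 TPM, against 656, 709 and 711 TPM with DMSO. The thapsigargin libraries did not overlap with any other group, and the starvation effect of 0.12 log2 did not pass (adjusted p 0.167) while the thapsigargin effect was 2.83 log2. The difference for Hspa5 was -2.71 ± 0.09 log2 (SE, adjusted p 1.37e-18).

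Several chaperone genes went in opposite directions. Sdf2l1, whose product works with Hspa5 in protein folding, had the largest negative difference of the genes named here, -3.91 ± 0.11 log2 (adjusted p 4.63e-20). It was at 14.8, 14.9 and 16.4 TPM in starved cells, against 26.01, 27.6 and 27.9 TPM in untreated cells. With thapsigargin it was at 181.5, 188.7 and 189.5 TPM, against 19.4, 20.2 and 22.0 TPM with DMSO. It thus fell with starvation and rose with thapsigargin, with no overlap in either comparison. Manf, a secreted ER stress protein, averaged 121 TPM in starved and 172 TPM in untreated cells, and 681.5 TPM with thapsigargin and 154 TPM with DMSO. Creld2, an ER folding factor whose ERSE is printed above, averaged 68.7 TPM in starved and 108 TPM in untreated cells, and 367 TPM with thapsigargin and 91.3 TPM with DMSO. Both fell with starvation and rose with thapsigargin. Dnajb9, a co-chaperone of Hspa5, rose with both, by 0.83 and 2.69 log2, and differed by -1.85. The exception in the list was Ero1l, the oxidase that drives disulfide formation, which averaged 84.3 TPM in starved and 28.4 TPM in untreated cells, and 59.8 TPM with thapsigargin and 29.6 TPM with DMSO. Its difference of 0.55 ± 0.17 log2 (adjusted p 0.0259) no longer passed without starved replicate 3, untreated replicate 3, thapsigargin replicate 2 or 3, or DMSO replicate 1 or 3, with an adjusted p of at most 0.0855.

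Parts of the secretory pathway beyond the chaperones went the same way in smaller numbers. Of 18 genes of ER-associated degradation, 8 were lower with starvation and 0 higher. Syvn1, the ubiquitin ligase of that pathway, averaged 26.8 TPM in starved and 43.7 TPM in untreated cells, and 115 TPM with thapsigargin and 32.2 TPM with DMSO. Herpud1, an ER membrane protein of degradation, rose with both stresses: it was at 182, 199.8 and 203 TPM in starved cells against 47.8, 48.6 and 50.1 TPM in untreated cells, and at 883, 909 and 912 TPM with thapsigargin against 42.1, 44.3 and 46.2 TPM with DMSO. Its difference was -2.35 ± 0.13 log2 (adjusted p 2.12e-13). Of 20 translocon and signal peptidase genes 7 were lower, led by Sec11c at -0.98. Of 20 genes of COPII and Golgi transport 5 were lower, where 6.17% of all genes were. That count ran from 1 to 5 with 1 WT library left out. It was 1 without untreated replicate 1, no larger a share than among all genes.

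Among the 12 sensors and transcription factors of the unfolded protein response, 4 were lower with starvation, where 6.17% of all genes were. Only 1 was higher, where 5.77% were, or up to 3 with 1 WT library left out. Xbp1, the factor spliced by IRE1, was at 44.2, 46.0 and 46.8 TPM in starved cells, against 37.0, 37.3 and 38.3 TPM in untreated cells. Under thapsigargin it stood at 154.0, 155.5 and 159.8 TPM, against 22.4, 24.9 and 27.8 TPM with DMSO. Both effects passed, 0.28 log2 with starvation and 2.60 log2 with thapsigargin, and the difference was -2.33 ± 0.11 log2 (adjusted p 4.51e-15). DMSO itself lowered Xbp1 by 0.57 log2 against untreated cells (adjusted p 0.00154), and with both controls exchanged the difference was -1.18 log2. Eif2ak3, the gene of PERK itself, averaged 3.98 TPM in starved and 6.99 TPM in untreated cells, and 11.7 TPM with thapsigargin and 7.29 TPM with DMSO. It fell with starvation and rose with thapsigargin, and the difference was -1.29 ± 0.14 log2 (adjusted p 7.98e-08). Eif2ak1, Eif2ak2 and Eif2ak4, the genes of the other eIF2alpha kinases HRI, PKR and GCN2, had differences of 0.07, 0.03 and 0.01 log2 that did not pass (adjusted p 0.653, 0.976 and 0.998), and their 95% intervals lay within 0.5 log2 of 0.

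Genes of ER calcium handling are of interest because thapsigargin acts on the calcium pump. Of 20 tested, 3 were lower with starvation, where 6.17% of all genes were, and 1 was higher, where 5.77% were, or 2 without untreated replicate 1, thapsigargin replicate 1 or DMSO replicate 2. Rcan1, an inhibitor of the calcium-dependent phosphatase calcineurin, averaged 12.7 TPM in starved and 14.2 TPM in untreated cells, and 41.5 TPM with thapsigargin and 15.2 TPM with DMSO. It rose with thapsigargin only in the sense that its starvation effect of -0.14 log2 did not pass (adjusted p 0.258), and the difference was -1.53 ± 0.13 log2 (adjusted p 5.31e-10). Stim2, the sensor of ER calcium that opens entry channels at the plasma membrane, went the other way. It averaged 49.8 TPM in starved and 38.3 TPM in untreated cells, and 18.03 TPM with thapsigargin and 37.7 TPM with DMSO, a difference of 1.40 ± 0.15 log2 (adjusted p 1.35e-07). Atp2a2, the gene of the main calcium pump that thapsigargin blocks, differed by -0.61 log2.

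**Figure D2:**
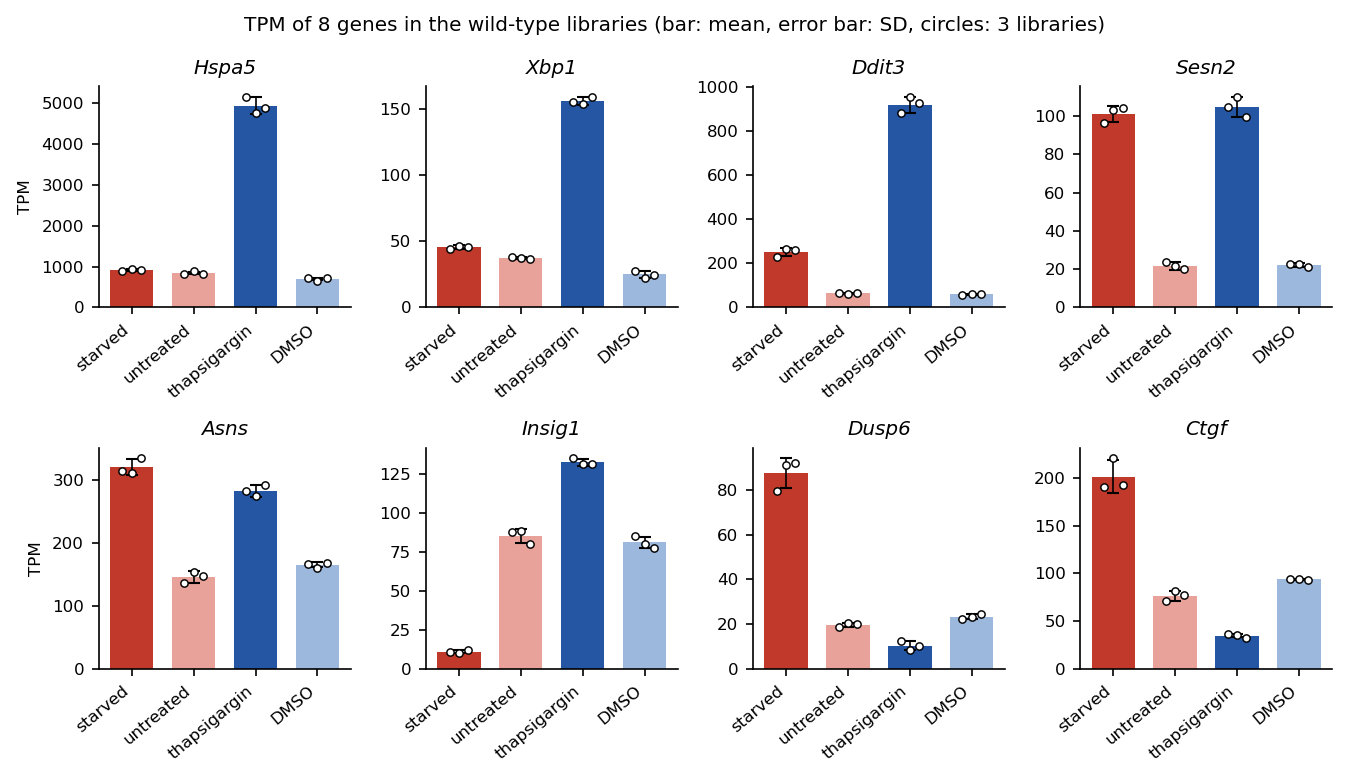
TPM of 8 genes in the WT libraries (linear y axes, different per gene), as bars for the mean of 3 libraries, error bars for the SD and circles for the libraries. Hspa5, Xbp1 and Ddit3 stand highest with thapsigargin, Sesn2 and Asns are high with both stresses, Insig1 is low with starvation only, and Dusp6 and Ctgf are above both controls with starvation and below them with thapsigargin.

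The genes of ATF4 and its partner CHOP rose with both stresses, and those that differed leaned to thapsigargin. Of 24 tested, 22 rose and 1 fell with starvation (median 1.62 log2), and 21 rose and 0 fell with thapsigargin (median 1.73 log2). The difference was lower for 7 and higher for 3, with a median of -0.22 log2. Herpud1 and Ero1l, described above, are also in this list, among its lower and its higher members. The 3 higher members were 1 or 2 when any of the 12 WT libraries was left out. The mRNA of Atf4 was at 1074, 1079 and 1083 TPM in starved cells, against 534.6, 561.5 and 579 TPM in untreated cells, and at 1497, 1533 and 1540 TPM with thapsigargin, against 596, 600.5 and 617 TPM with DMSO. It rose in both, and its difference was -0.38 ± 0.07 log2 (adjusted p 0.000174), or -0.61 log2 with both controls exchanged.

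Ddit3, the gene of CHOP, had a much larger difference than Atf4. It was at 229.5, 263 and 264 TPM in starved cells, against 63.1, 65.2 and 67.2 TPM in untreated cells. With thapsigargin it was at 881.5, 928 and 953 TPM, against 57.0, 59.1 and 60.7 TPM with DMSO. It rose by 1.93 log2 with starvation and by 3.94 log2 with thapsigargin, a difference of -2.01 ± 0.09 log2 (adjusted p 8.3e-16). Ppp1r15a, the subunit GADD34 that leads a phosphatase to eIF2alpha, rose by 2.54 and 3.54 log2 and differed by -0.997. Atf3, a transcription factor of the same response, rose by 2.83 and 3.63 log2, and Chac1, a glutathione-degrading enzyme, by 2.69 and 3.44 log2. Both had a CARE in the stretches printed above and differed by -0.80 and -0.75 log2. Trib3, a pseudokinase raised by CHOP, was at 188, 203 and 220.3 TPM in starved cells against 16.7, 18.2 and 20.7 TPM in untreated cells, and at 291, 294.8 and 323.5 TPM with thapsigargin against 18.9, 20.9 and 21.5 TPM with DMSO. Its difference of -0.44 ± 0.17 log2 did not pass (adjusted p 0.102). It passed, at -0.57 log2, where starved cells were compared with thapsigargin-treated cells directly.

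For a few genes with large rises the difference lay within narrow limits. Sesn2, the stress protein that senses leucine and restrains mTORC1, was at 96.4, 103 and 104 TPM in starved cells, against 19.9, 21.5 and 23.6 TPM in untreated cells. Thapsigargin libraries had 99.3, 105 and 110.2 TPM, against 21, 22.8 and 22.8 TPM with DMSO. The starved and thapsigargin libraries overlapped with each other and lay above all controls. It rose by 2.18 and 2.19 log2, and the 95% interval of the difference ran from -0.27 to 0.24 log2. Elovl3, Stbd1 and Tspyl4 also rose over 2 log2 in both stresses with differences of -0.13, -0.25 and -0.01 log2 whose intervals lay within 0.5. The interval of Stbd1 did not reach 0, and its difference passed without DMSO replicate 3 (-0.31 log2, adjusted p 0.0267) and where starved cells were set directly against thapsigargin-treated cells (-0.22 log2, adjusted p 0.00929). With both controls exchanged Elovl3 and Tspyl4 differed by -0.43 and -0.45 log2 and passed.

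The genes of amino acid supply also rose with both stresses, and here the few that differed leaned to starvation. All 14 tested enzymes of amino acid synthesis and one-carbon metabolism rose with starvation (median 1.09 log2) and all 14 with thapsigargin (median 0.87 log2). The difference was higher for 4 and lower for 0, with a median of 0.34 log2, which was 0.13 log2 with both controls exchanged. Asns, asparagine synthetase, was at 311, 314 and 334 TPM in starved cells, against 136, 148 and 154 TPM in untreated cells, and at 274, 282 and 292 TPM with thapsigargin, against 161, 167 and 168 TPM with DMSO. It rose by 1.13 and 0.77 log2, and its difference of 0.36 ± 0.08 log2 (adjusted p 0.00151) was -0.002 with the controls exchanged. Where starved cells were set directly against thapsigargin-treated cells, Asns differed by 0.18 log2 and passed (adjusted p 0.0143). Cth, which makes cysteine from cystathionine, differed more, at 112, 116 and 125 TPM in starved cells against 18.8, 19.1 and 19.5 TPM in untreated cells, and at 75.4, 77.9 and 79.6 TPM with thapsigargin against 19.9, 20.3 and 20.3 TPM with DMSO. All starved libraries lay above all thapsigargin libraries, and the difference was 0.66 ± 0.12 log2 (adjusted p 0.000175).

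Amino acid transporters were mixed. Of 17 tested, 10 rose and 2 fell with starvation, and 10 rose and 3 fell with thapsigargin. The difference was higher for 2, where 5.77% of all genes were, and lower for 1, where 6.17% were. These counts were 4 and 1 without untreated replicate 1, and 2 and 2 without untreated replicate 3. Slc7a11, the subunit of the cystine importer, averaged 18.5 ± 2.0 TPM in starved and 1.57 ± 0.35 TPM in untreated cells, and 8.29 ± 2.41 TPM with thapsigargin and 2.32 ± 0.80 TPM with DMSO (SD, n = 3 each). Its difference was 1.44 ± 0.25 log2 (adjusted p 0.000128), or 0.74 log2 with both controls exchanged. Slc3a2, the partner chain of several of these transporters, leaned the other way, averaging 615 TPM in starved and 243 TPM in untreated cells, and 963 TPM with thapsigargin and 252 TPM with DMSO, a difference of -0.59 ± 0.09 log2 (adjusted p 1.02e-05). Slc7a1, a carrier of arginine and lysine, the amino acids left out of the medium, had a difference of 0.29 log2 that did not pass.

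The cytosolic tRNA synthetases rose with both stresses: of 20 tested, 15 rose with starvation and 16 with thapsigargin, with medians of 0.60 and 0.51 log2. Only Rars, the synthetase for arginine, was higher with starvation and only Farsa, a subunit of that for phenylalanine, was lower. Of all genes tested 5.77% were higher and 6.17% lower. Rars averaged 271.5 TPM in starved and 165 TPM in untreated cells, and 223 TPM with thapsigargin and 165 TPM with DMSO, a difference of 0.29 ± 0.07 log2 (adjusted p 0.00309). Kars, the synthetase for lysine, had a difference of 0.08 log2 that did not pass. The call on Farsa, -0.19 log2 with an adjusted p of 0.0488, was lost without any one of the WT libraries but untreated replicate 2 and DMSO replicate 2, with an adjusted p of at most 0.133. Without untreated replicate 2, 4 synthetases were higher. Among 11 genes of arginine, lysine and polyamine metabolism Odc1 and Sms were higher, at 0.44 and 0.45 log2, and Srm was lower, at -0.29. With both controls exchanged the difference for Odc1 was 0.0 log2.

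Sterol genes had the largest share of members called among the 27 lists. All 25 tested genes of sterol synthesis and uptake fell with starvation, with a median of -1.34 log2, while 11 rose and 1 fell with thapsigargin, with a median of 0.22 log2. The difference was lower for 24 of 25, with a median of -1.67 log2, and 24 were lower without any one of the 12 WT libraries. These are targets of SREBP2, the factor that cells activate when ER cholesterol is low.

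Insig1, the ER protein that holds SREBP back and is itself an SREBP target, was at 10.1, 11.1 and 11.9 TPM in starved cells, against 79.9, 87.4 and 87.9 TPM in untreated cells. With thapsigargin it was at 131, 131 and 135 TPM, against 77.7, 79.9 and 85.1 TPM with DMSO. It fell by 2.84 log2 with starvation, rose by 0.70 log2 with thapsigargin, and differed by -3.55 ± 0.10 log2 (adjusted p 4.63e-20). Hmgcs1, the synthase whose SRE is printed above, was at 16.4, 16.4 and 17.7 TPM in starved cells, against 103, 128 and 133 TPM in untreated cells, and at 130.5, 132 and 143 TPM with thapsigargin, against 115, 121.5 and 123 TPM with DMSO. The thapsigargin effect did not pass (adjusted p 0.129) and the difference was -2.94 ± 0.12 log2 (adjusted p 8.84e-17). Mvd and Idi1, enzymes of the mevalonate pathway, fell by 2.37 and 2.38 log2 with starvation and rose by 0.61 and 0.35 log2 with thapsigargin. Msmo1 and Fdft1, later enzymes of the route, were like them in direction, falling by 1.22 and 1.34 log2 and rising by 0.78 and 0.70 log2.

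Fatty acid synthesis followed with a smaller difference: of 15 tested, 11 fell with starvation, 6 rose and 2 fell with thapsigargin, and the difference was lower for 10 and higher for 0 (median -0.70 log2). Scd2, a desaturase, was at 152, 155 and 156 TPM in starved cells, against 407, 448 and 489 TPM in untreated cells, and at 412, 417 and 475.5 TPM with thapsigargin, against 393, 421 and 455 TPM with DMSO. Only the starved libraries stood apart, and the difference was -1.57 ± 0.13 log2 (adjusted p 4.84e-10). Lpin1, a phosphatidate phosphatase, differed by -1.56 and Fasn, fatty acid synthase, by -1.23.

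On the starvation side Dusp6, a phosphatase that shuts off the kinase ERK, had the largest difference of the genes named here, 3.20 ± 0.15 log2 (adjusted p 3.26e-15). It was at 79.7, 91.0 and 91.8 TPM in starved cells, against 18.8, 20.0 and 20.4 TPM in untreated cells. With thapsigargin it was at 8.46, 10.2 and 12.4 TPM, against 22.3, 23.0 and 24.7 TPM with DMSO. Starved cells were above and thapsigargin-treated cells below every control. Of the 12 genes with the largest positive differences, all rose with starvation and 11 fell with thapsigargin, the thapsigargin effect of Fgf2, a fibroblast growth factor, not passing (adjusted p 0.124).

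Ctgf, a matrix protein and target of YAP and TGF-beta signalling, averaged 201 TPM in starved and 76.5 TPM in untreated cells, and 34.9 TPM with thapsigargin and 93.7 TPM with DMSO. Hbegf, a ligand of the EGF receptor, averaged 66.1 TPM in starved and 16.1 TPM in untreated cells, and 11.8 TPM with thapsigargin and 17.99 TPM with DMSO. Has2, which makes hyaluronan, and Errfi1, a feedback inhibitor of the EGF receptor, differed by 2.73 and 2.24 log2. Hmga2, a chromatin protein, rose by 0.88 log2 and fell by 1.71 log2. Sema7a, Oaf and Tmem171, also of this set, had differences of 3.00, 2.50 and 2.39 log2.

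Of 25 immediate early genes, 20 rose and 1 fell with starvation, and 7 rose and 10 fell with thapsigargin. The difference was higher for 15 and lower for 2, with a median of 0.67 log2, and 15 or 16 were higher when any WT library was left out. Dusp5, a nuclear phosphatase of ERK, was at 67.0, 71.9 and 73.7 TPM in starved cells, against 18.1, 18.1 and 19.5 TPM in untreated cells, and at 13.7, 13.8 and 15.8 TPM with thapsigargin, against 21.2, 22.6 and 22.7 TPM with DMSO. Egr2, a serum-inducible transcription factor, averaged 11.6 TPM in starved and 2.36 TPM in untreated cells, and 2.41 TPM with thapsigargin and 3.08 TPM with DMSO. Egr1, Egr3, Jun and Fos, factors of the same early wave, differed by 2.08, 2.06, 1.60 and 1.29 log2. Klf4 and Fosb were the members lower with starvation, Klf4 averaging 40.8 TPM in starved and 13.8 TPM in untreated cells, and 55.4 TPM with thapsigargin and 12.5 TPM with DMSO. Klf4 no longer passed without starved replicate 1 (adjusted p 0.0618) nor Fosb without starved replicate 1 or 3, untreated replicate 1 or 3, thapsigargin replicate 2 or any one DMSO library (adjusted p at most 0.13).

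Collagen and matrix genes went the same way in part: 10 of 25 were higher and 1 was lower, P3h2, which did not pass without DMSO replicate 2 (adjusted p 0.0539), with 7 rising and 8 falling with starvation and 2 rising and 12 falling with thapsigargin. Timp3, an inhibitor of matrix proteases, averaged 442 TPM in starved and 272 TPM in untreated cells, and 109.9 TPM with thapsigargin and 255 TPM with DMSO. Its difference was 1.92 ± 0.13 log2 (adjusted p 5.81e-12). The fibrillar collagen genes Col1a1 and Col3a1 had differences of -0.36 and -0.31 log2 that did not pass. The summed TPM of the 12 fibroblast markers, some of which are matrix genes, was 3452 to 3593 in starved and 3940 to 4567 in untreated cells, and 3283 to 3365 with thapsigargin and 3742 to 3929 with DMSO. It was lower with both stresses, its part in these results was not tested, and in bulk RNA fewer cells of a type and less RNA per cell cannot be told apart.

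**Figure D3:**
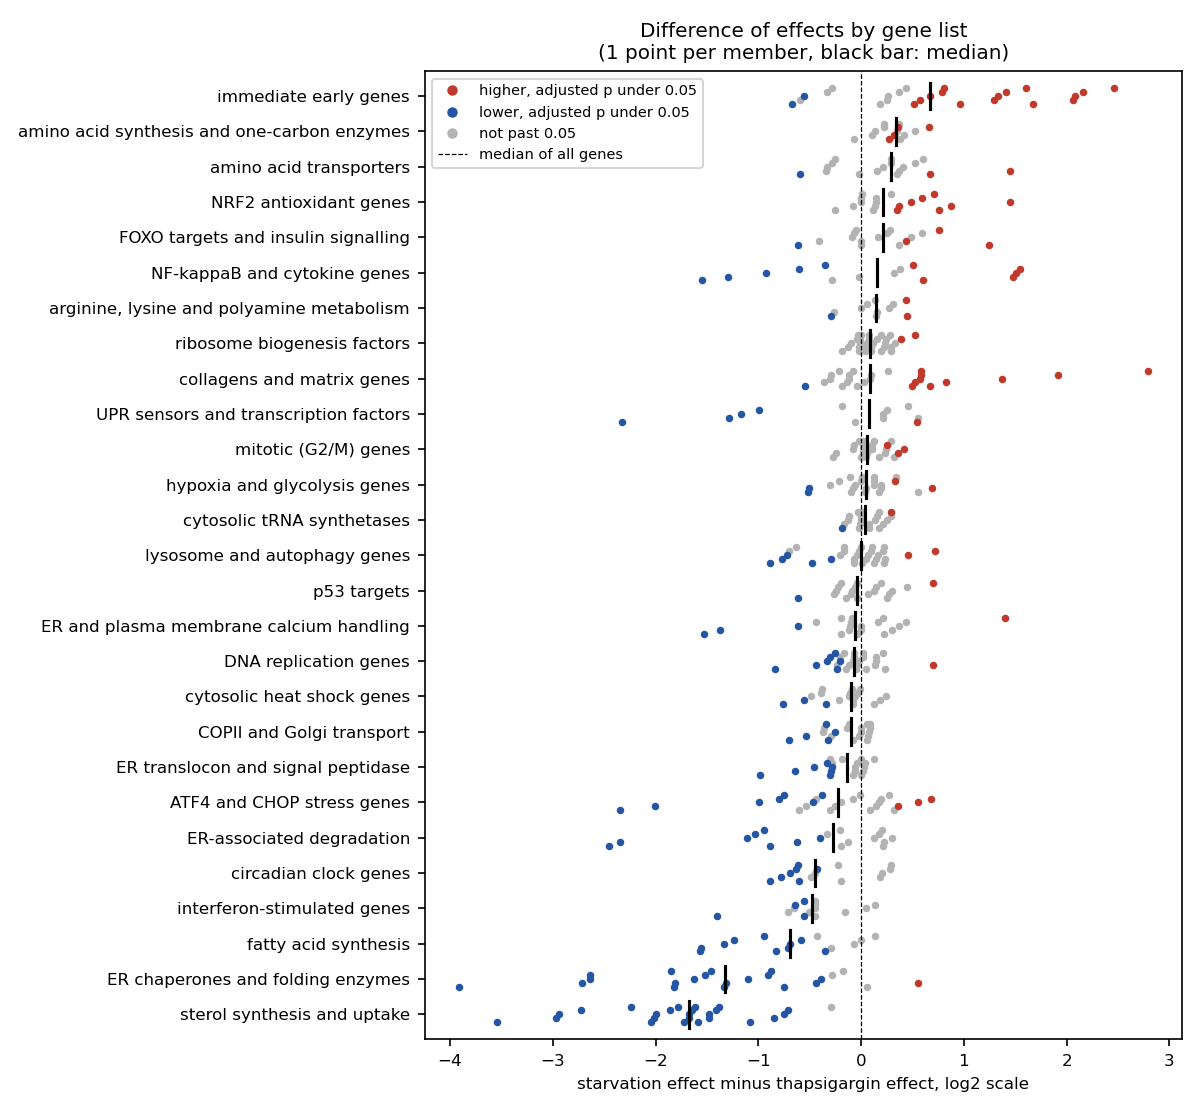
Difference of effects (x axis, starvation effect minus thapsigargin effect, log2) for the tested members of the 27 gene lists, 1 point per member, red and blue where called, with a black bar at each list's median and a dashed line at the median of all genes. Sterol synthesis and ER chaperones lie furthest to the left with medians of -1.67 and -1.33, and immediate early genes furthest to the right with 0.67.

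Cytokine genes were divided: of 14 tested 5 were higher and 5 lower. Lif and Csf1, secreted cytokines, were higher by 1.55 and 1.502 log2. Csf1 averaged 342 TPM in starved and 257 TPM in untreated cells, and 113 TPM with thapsigargin and 242 TPM with DMSO. The chemokines Ccl7 and Cxcl1 differed by -1.55 and -1.30 log2, Cxcl1 by -0.86 log2 with the controls exchanged. Of 18 NRF2 antioxidant genes, 8 were higher and 0 lower, led after Slc7a11 by Txnrd1, thioredoxin reductase, which averaged 439 TPM in starved and 227 TPM in untreated cells, and 274 TPM with thapsigargin and 260.5 TPM with DMSO. With the controls exchanged 3 of these genes were higher and 5 lower, and the list's median was -0.04 in place of 0.22 log2.

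Other lists had smaller or less even differences, to be read beside the 5.77% of all genes that were higher and the 6.17% that were lower. Mitotic genes fell with both stresses, 22 of 23 with starvation and 23 with thapsigargin, with medians of -0.58 and -0.66 log2, and 3 differed, among them Aurka and Ccnb1 at 0.42 and 0.36 log2. With the controls exchanged Aurka had 0.02 log2 and did not pass (adjusted p 0.894), while 8 mitotic genes were higher and the median difference was 0.21 in place of 0.06 log2. Of 27 DNA replication genes 7 were lower, led by Cdc6, a loader of the replicative helicase, which averaged 42.6 TPM in starved and 40.4 TPM in untreated cells, and 78.6 TPM with thapsigargin and 41.2 TPM with DMSO. That count was 4 without starved replicate 3, untreated replicate 2 or thapsigargin replicate 3. Ribosome biogenesis factors rose in 22 of 30 with starvation and 14 with thapsigargin, and 2 differed, a count that ran from 0 to 4 with 1 WT library left out. Of 15 circadian clock genes 7 were lower, a count that ran from 3 to 8 with 1 WT library left out. Interferon-stimulated genes had 4 of 14 lower, led by Stat2 at -1.40 log2, and 2 without untreated replicate 1. With the controls exchanged Stat2 had -0.71 log2, and 1 gene of that list was lower and 1 higher. Irs1, an adaptor of the insulin receptor, fell with both stresses but by 0.59 log2 with starvation and 1.83 log2 with thapsigargin. Tfeb and Flcn, regulators of lysosome genes, fell with starvation by 0.81 and 0.65 log2 while their thapsigargin effects did not pass, and were among 5 of 29 lysosome and autophagy genes that were lower, with 2 higher, or 1 without untreated replicate 1.

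Exchanging both controls also moved the counts of other lists by over 1.5 times. The unfolded protein response factors and the calcium genes then had 5 higher and 5 lower each, the transporters 6 higher and the tRNA synthetases 4 higher. Matrix genes had 16 higher and 0 lower, with a median of 0.43 in place of 0.08 log2. Clock genes had 4 lower and 1 higher, with a median of -0.05 in place of -0.45 log2, and of the DNA replication genes 4 were lower. The counts for sterol synthesis, ER chaperones, ER-associated degradation and fatty acid synthesis were then 23, 18, 8 and 10 lower and 0 higher.

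The same difference was then taken in the deletion lines, to see where WT stood apart. Against the GCN2-deletion line the WT difference was higher for 709 genes (4.41%) and lower for 180 (1.12%). Against the PERK-deletion line it was higher for 117 (0.727%) and lower for 156 (0.97%). Each genotype is 1 line, so genotype and line cannot be told apart.

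The stress and amino acid synthesis genes had higher differences in WT than in the GCN2-deletion line. Of 24 ATF4 and CHOP stress genes, the WT difference was higher for 23 and lower for 0, with medians of -0.22 log2 in WT and -2.52 log2 in the GCN2-deletion line. Of 14 amino acid synthesis genes it was higher for all 14, with medians of 0.34 and -1.55 log2, and of 20 tRNA synthetases for 13. Trib3 averaged 204 TPM in starved and 18.6 TPM in untreated WT cells, and 1.15 TPM in starved and 6.01 TPM in untreated GCN2-deletion cells. In WT cells it averaged 303 TPM with thapsigargin and 20.4 TPM with DMSO, and in GCN2-deletion cells 210.0 TPM with thapsigargin and 5.51 TPM with DMSO. Its WT difference was above that of the GCN2-deletion line by 6.30 ± 0.24 log2 (adjusted p 4.67e-16). Sesn2, with a WT difference near 0, had a difference of -4.02 log2 in the GCN2-deletion line, and the lines differed by 4.01 log2 (adjusted p 2.66e-15). Against the PERK-deletion line the WT difference was higher for 2 of the 24 stress genes and for 0 of the 14 synthesis genes. Of all genes 0.727% were higher there. The difference alone does not show the size of either effect. In PERK-deletion cells Trib3 averaged 33.6 TPM starved and 27.1 TPM untreated, and 71.1 TPM with thapsigargin and 33.4 TPM with DMSO.

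The ER chaperone and sterol genes had negative median differences in all 3 lines. Of 22 chaperones the WT difference was higher for 2 and lower for 1 against the GCN2-deletion line, where 4.41% and 1.12% of all genes were, and higher for 0 and lower for 0 against the PERK-deletion line. The median difference of the chaperones was -1.33 log2 in WT, -1.12 without GCN2 and -1.47 without PERK. For the 25 sterol genes it was -1.67, -1.36 and -1.65 log2. WT was lower for 7 of them against the GCN2-deletion line, and for 1 against the PERK-deletion line, where it was higher for 1. Hspa5 had -2.71 log2 in WT, -2.93 without GCN2 and -2.80 without PERK, and neither comparison passed (adjusted p 0.386 and 0.848). Insig1 had -3.55, -3.34 and -2.99 log2, and differed from the PERK-deletion line by -0.56 log2 (adjusted p 0.0294).

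On the starvation side WT differed from the deletion lines at some of its largest genes. Dusp6 had a difference of 3.20 log2 in WT and 0.97 log2 in the PERK-deletion line, 2.24 ± 0.21 log2 apart (adjusted p 2.52e-07). In the GCN2-deletion line it had 2.17 log2, 1.03 ± 0.21 log2 below WT (adjusted p 0.00223). Ctgf had 2.79 log2 in WT, 1.58 log2 without GCN2 and 1.53 log2 without PERK, and both comparisons passed. Hbegf had 2.54, 2.23 and 2.45 log2, and neither comparison passed (adjusted p 0.191 and 0.838).

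**Figure D4:**
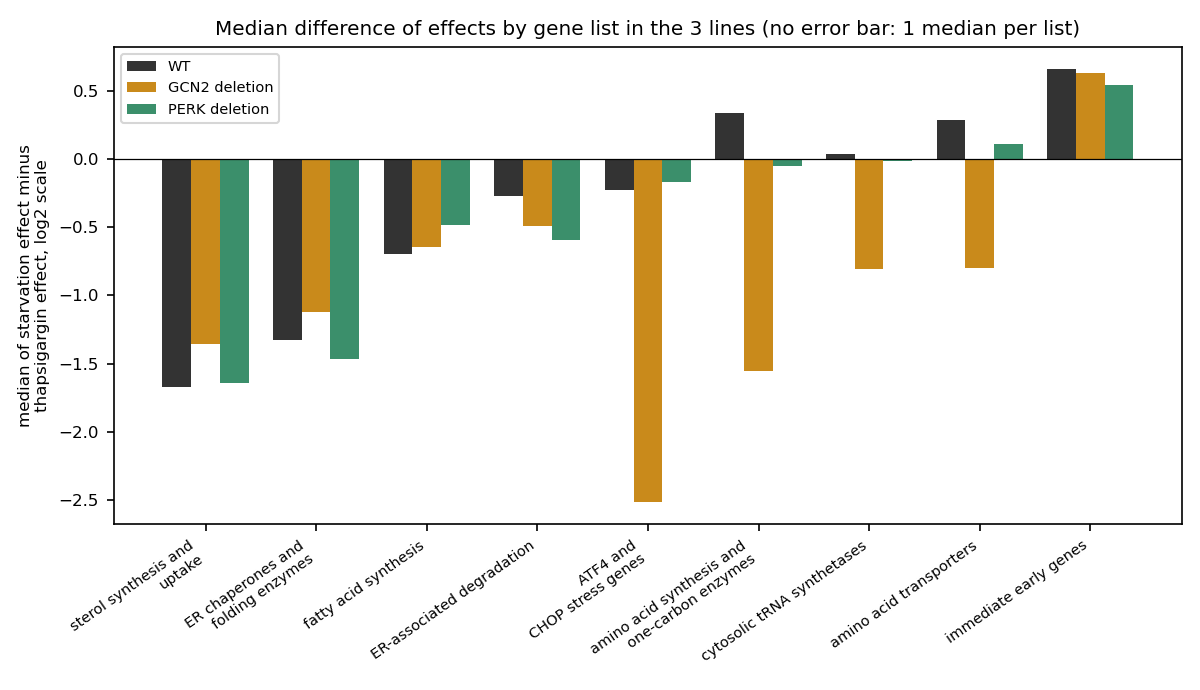
Median difference of effects (y axis, starvation effect minus thapsigargin effect, log2) of 9 gene lists in WT and both deletion lines, as bars without error because each is 1 median over a list. The bars of all 3 lines are below -1 for sterol synthesis and ER chaperones, while the ATF4 and CHOP stress genes are at -0.22 in WT and at -2.52 in the GCN2-deletion line.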

How the data were processed

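RNA of mouse embryonic fibroblasts was sequenced from stranded TruSeq libraries of total RNA, per the labels' protocols. The deposited table gives TPM per gene symbol (54735 symbols, 36 libraries), as the authors computed them. The submitters' processing notes name FastQC, kallisto and mm10, without versions. TPM keeps no depth, so no counting interval was given, and a share taken by some genes moves all others. Values were used as deposited, on log2(TPM + 1), which understates changes of low genes.

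The 16083 genes that reached 1 TPM in 3 or more libraries were tested. All 12 groups entered one linear model (limma 3.58.1, R 4.3.3, 24 residual degrees of freedom, moderated variances with trend), and p-values were adjusted after Benjamini and Hochberg across these genes. The test was first run on simulated data. Symbols were matched to GENCODE M21 (54183) and RefSeq (32 more). Promoter windows of 300 bases, for 27025 genes, were RefSeq's. Genes were named by a rule: a panel of 4 eIF2alpha kinases and 12 stress genes, the 12 largest protein-coding differences each way at 5 TPM or more in 1 WT group, opposite and like responders, and up to 2 members each way per list, and other list members named are shown for their role. Some genes that the rule names are not reported here. The 27 gene lists, the panel and the comparison were chosen with earlier results of these data known, so they are described by counts and medians with no set test. Some genes, such as Herpud1, Ero1l, Slc7a11 and Sesn1, are in more than 1 list and are counted in each. Alternatives changed the controls, scaling, filter, pseudocount, variance model, libraries and replicate block. Figures used Python 3.11.15 and matplotlib 3.10.9.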

Additional observations from a re-analysis of the deposited data

Results flagged for a closer look

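All results here were picked out because the WT difference of effects (starvation effect minus thapsigargin effect) differed from that of a deletion line by the test of that difference itself (limma, Benjamini-Hochberg adjustment over all genes), and they are the 4 largest in each direction per line among genes with at least 5 TPM in 1 group. Trib3, Chac1, Slc7a11 and Adm2, all raised by both stresses in WT, had WT differences above those of the GCN2-deletion line by 6.30, 5.71, 4.85 and 4.78 log2. Adm2, a peptide hormone gene, averaged 9.04 TPM in starved and 0.26 TPM in untreated WT cells, and 0.60 TPM in starved and 1.145 TPM in untreated GCN2-deletion cells. With thapsigargin Adm2 averaged 6.67 TPM in WT and 21.1 TPM in GCN2-deletion cells.

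Below the GCN2-deletion line were Adm at -2.01, Ret at -1.99, Adcyap1r1 at -1.93 and Fosb at -1.88 log2. Ret, a receptor tyrosine kinase gene, was low in WT, at 0.18 TPM in starved and 0.11 TPM in untreated cells, while GCN2-deletion cells had 7.20 TPM starved and 2.34 TPM untreated, and PERK-deletion cells had 6.67 TPM starved and 2.52 TPM untreated. Adcyap1r1 was under 0.1 TPM in every WT group, and Adm was at 0.46 TPM in starved and 0.93 TPM in untreated WT cells. These 3 genes reached the level asked for only in a deletion line, and on the log2(TPM + 1) scale a gene so low has a WT difference held near 0, so the values say nothing about the WT response. The same holds for Ret against the PERK-deletion line, at -2.09 log2. Fosb also reached 5 TPM only in a deletion line. Its WT group means were at most 2.38 TPM, so its WT difference is understated on this scale.

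Against the PERK-deletion line the WT difference was higher for Dusp6 by 2.24, Npr3 by 2.12, Cyp1a1 by 1.99 and Irak2 by 1.82 log2. Npr3, a receptor that clears natriuretic peptides, averaged 76.4 TPM in starved and 25 TPM in untreated WT cells, and 7.67 TPM in starved and 11.6 TPM in untreated PERK-deletion cells. Below the PERK-deletion line were also Rasl11a at -2.31, Ucn2 at -2.175 and Col7a1 at -1.915 log2. Cyp1a1 and Ucn2 reached 5 TPM only in PERK-deletion cells. Their WT group means were at most 3.90 and 3.18 TPM, and changes of genes so low are understated on this scale. The WT difference of Ucn2, -0.44 log2, did not pass (adjusted p 0.499) and was 1.30 log2 with both controls exchanged. Untreated replicate 1 held the highest WT values of Ucn2 and Col7a1, 5.81 and 64.6 TPM, against 1.77 to 1.97 and 25.2 to 26.4 TPM in the other untreated WT libraries. Rasl11a averaged 28.6 TPM in starved and 82.3 TPM in untreated WT cells, and 3.08 TPM in starved and 1.56 TPM in untreated PERK-deletion cells. The PERK-deletion means of Rasl11a were at most 3.08 TPM, so its difference there, 0.995 log2, is understated on this scale. Col7a1 did not pass without DMSO replicate 3 (-1.86 log2, adjusted p 0.0565).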

How the results depend on the processing

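The choice of control and the weighting of libraries both moved the counts. Without control libraries (starved against thapsigargin-treated cells directly) 2607 genes were higher, 1568 lower and 288 at least 2-fold higher, the WT difference exceeded that of the GCN2-deletion line for 3573 and lay below it for 872, and for the PERK-deletion line these were 685 and 480. With both controls exchanged 2424 were higher and 503 at least 2-fold higher, 4039 fell with thapsigargin, and 260 rose with starvation and fell with thapsigargin. Array weights gave 2389 higher, 2080 lower, 271 at least 2-fold higher, 4614 lowered by thapsigargin, and 348 and 301 with opposite calls. Median-of-ratios rescaling gave 1399 higher, and 428 below the GCN2-deletion and 225 above the PERK-deletion line. WT groups alone gave 608 higher, and a pseudocount of 0.1 gave 228 at least 2-fold lower. By construction, the direct comparison is the main difference minus the change from untreated to DMSO cells, and the exchange subtracts that change again. The direct comparison also uses fewer groups, which narrows its standard errors. Why the other settings moved the counts was not tested. With 1 WT library left out, 684 to 1251 genes were higher and 774 to 1245 lower, and calls were 36.8% higher without untreated replicate 3 and 57.9% without thapsigargin replicate 1. Signs turned with the controls exchanged for Asns (-0.002), Preb (0.094), Gabarapl1 (-0.07), Ucn2 (1.30), Col7a1 (1.40) and the medians of NRF2 (-0.042), heat shock (0.05), lysosome (-0.076) and hypoxia genes (-0.01), and without a filter for the NF-kappaB median (-0.089). List medians under 0.1 log2 in size turned with other settings too. With the controls exchanged Ero1l, Farsa, Klf4, Tfeb, P3h2, Cyp1a1 and Adm2 also no longer passed (adjusted p 0.0598 to 0.741), nor did Farsa and Srm with rescaling (0.191 and 0.0906). Leaving out WT libraries for the comparison with the deletion lines was added after the data were seen. Replicate numbers did not pair the libraries (correlations of -0.16 to 0.16 between equal numbers), and a replicate block gave 938 higher and 959 lower.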

Other observations

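Some lists were not described above. Of 18 cytosolic heat shock genes 1 rose and 9 fell with starvation, 0 rose and 6 fell with thapsigargin, and the difference was lower for 3 and higher for 0, or lower for 1 without starved replicate 3. Among all genes tested, 6.17% were lower and 5.77% higher. With both controls exchanged 3 of the heat shock genes were higher and 2 lower, and their median was 0.05 in place of -0.10 log2. Hspa1b, an inducible cytosolic HSP70 with a near-identical neighbour gene Hspa1a, averaged 4.86 TPM in starved and 21.8 TPM in untreated cells, and 7.04 TPM with thapsigargin and 17.55 TPM with DMSO. It fell with both stresses, and its difference of -0.76 log2 did not pass without starved replicate 3 (adjusted p 0.0613) and was -0.15 log2 with both controls exchanged (adjusted p 0.671). Bag3, a co-chaperone of HSP70, fell with starvation by 0.65 log2, had a thapsigargin effect of -0.09 log2 that did not pass, and differed by -0.56 log2.

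Of 22 hypoxia and glycolysis genes 2 were higher and 2 lower, or 1 and 4 without untreated replicate 3. For this list and those that follow, 5.77% of all genes tested were higher and 6.17% lower. Slc2a1, the glucose carrier GLUT1, averaged 86.9 TPM in starved and 54.8 TPM in untreated cells, and 54.7 TPM with thapsigargin and 56.0 TPM with DMSO. Ndrg1 rose with both stresses, by 1.57 and 2.08 log2, and differed by -0.51 log2, or by -1.04 log2 with both controls exchanged. Of 20 p53 targets Plk2, a kinase gene, was higher by 0.70 log2, and Sesn1 was lower at -0.61 log2, while the difference for its paralog Sesn2 did not pass the test. Of 16 FOXO and insulin signalling genes 3 were higher and 1 lower, with 2 to 5 higher when 1 WT library was left out. Ciart, a repressor of the circadian clock, rose by 3.03 log2 with starvation and 3.81 log2 with thapsigargin, averaging 74.0 TPM in starved and 8.25 TPM in untreated cells, and 124.6 TPM with thapsigargin and 8.03 TPM with DMSO.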
